A study of Mus musculus with 8 samples.

Results

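The platelet-derived growth factor (PDGF) receptors and ligands were described in cultured fibro/adipogenic progenitors (FAPs) of dystrophic muscle. All members were chosen by name, 7 of the 31053 genes counted, namely the receptors *Pdgfra* and *Pdgfrb*, the receptor-like gene *Pdgfrl* and the ligands *Pdgfa*, *Pdgfb*, *Pdgfc* and *Pdgfd*. FAPs are mesenchymal cells that lie between the fibres of skeletal muscle and can turn into adipocytes or fibroblasts. Here they came from the hind limb muscles of *mdx* mice (strain C57BL/10ScSn-Dmdmdx/J), which lack dystrophin, at an age of 45 days. Cells without CD45, CD31 and Integrin alpha-7 and with SCA-1 on their surface were sorted into SCA1-High-FAPs and SCA1-Low-FAPs, and each cell state spent 5 days in culture in a serum-containing growth medium (GM) before its mRNA was sequenced from the 3′ end. There were 4 samples of each cell state. The series description gives 4 mice for the 8 samples and does not say which samples share a mouse. Both carried the *mdx* mutation and the same culture, so that no comparison with healthy or freshly isolated cells is contained in these values. The comparison asks whether the states chosen by SCA-1 differ in mRNA for PDGF signalling.

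PDGF ligands are secreted pairs of chains. They bring receptor chains together on the cell surface, and the intracellular kinase domains then phosphorylate each other and recruit signalling proteins that lead to Ras, PI3-kinase and phospholipase C. PDGF-A and PDGF-C chains act mainly through PDGFR-alpha, PDGF-B through both receptors and PDGF-D mainly through PDGFR-beta. In muscle, PDGFR-alpha (CD140a) is the usual surface marker of FAPs, whereas PDGFR-beta is best known from pericytes and other mural cells but is also made by many fibroblasts.

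Each sample held 1880561 to 3985656 counts, and 10181 genes entered the test. Levels are given as CPM, counts divided by the TMM-adjusted size of each library so that samples compare, and 3 counts, the floor used here, equal 0.792 to 1.63 CPM depending on the sample. Such floors and all intervals on shares cover counting error only. Each read came from near the end of a transcript, so that CPM was not divided by gene length. Log2 fold changes are SCA1-Low-FAPs over SCA1-High-FAPs with standard error (SE) from edgeR's quasi-likelihood test. A gene was called where the adjusted p was under 0.05 and the size of the log2 fold change above 0.5. The edgeR test treats the 8 samples as independent, although 4 mice are given for them. *Ly6a*, which encodes SCA-1, went against the direction of the sort. Its mRNA was at 492 to 919 CPM in SCA1-High-FAPs and 1014 to 1156 CPM in SCA1-Low-FAPs (edgeR log2 fold change of 0.61, adjusted p = 0.0341). This call was lost in 7 of the 8 fits that left out 1 sample, all but that without SCA1-High-FAPs replicate 4. Over these 8 fits the log2 fold change was 0.48 to 0.76. The call was also lost with replicate 3 of both cell states left out (edgeR adjusted p = 0.0961) and in edgeR with a replicate block (adjusted p = 0.0573). It was kept by DESeq2 without a replicate block (adjusted p = 0.0120) and with it (adjusted p = 0.0138), and by edgeR with other scaling and filters. The names of the cell states therefore refer to the surface protein at sorting and not to *Ly6a* mRNA after culture. Of 11 FAP markers 8 were tested, and *Dpp4* was at 0 in all samples. With all 8 samples, 5 of them were called, *Thy1* and *Ly6a* as higher and *Dcn*, *Col3a1* and *Gsn* as lower in SCA1-Low-FAPs, where 7.68% of all tested genes were called. The most abundant, *Col1a1*, was at means of 7559 and 6578 CPM and was not called.

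*Pdgfa* was the only member called. Its annotated promoters are printed here because they belong to the member that differed, with the GC box GGGCGG, on either strand, in capitals. They come from RefSeq on GRCm38.p6 and cover 250 bases before and 50 bases after a transcript start, read 5′ to 3′ along the gene.
Pdgfa promoter, inner start, chr5:138994232-138994531, minus strand: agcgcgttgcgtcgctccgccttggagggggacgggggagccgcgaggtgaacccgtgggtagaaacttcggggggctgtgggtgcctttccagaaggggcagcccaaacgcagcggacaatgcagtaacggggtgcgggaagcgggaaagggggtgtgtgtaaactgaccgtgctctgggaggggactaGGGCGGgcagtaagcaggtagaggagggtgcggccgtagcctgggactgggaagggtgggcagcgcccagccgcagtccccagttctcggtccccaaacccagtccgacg
Pdgfa promoter, outer start, chr5:138994895-138995194, minus strand: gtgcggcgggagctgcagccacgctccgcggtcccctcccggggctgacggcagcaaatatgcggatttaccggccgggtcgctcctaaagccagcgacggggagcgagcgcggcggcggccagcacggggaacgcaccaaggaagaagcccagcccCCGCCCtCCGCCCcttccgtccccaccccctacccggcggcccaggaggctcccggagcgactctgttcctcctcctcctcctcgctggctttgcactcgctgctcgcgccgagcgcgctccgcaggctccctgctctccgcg
The window of the inner start held 1 GC box and 67% G and C, more than 85.6% of 32851 promoter windows. The window of the outer start held 2 GC boxes and 73.3% G and C, more than 94.5% of the windows. A GC box, a short sequence bound by SP1-family factors, occurred in 35.7% of all windows. The TATA box TATAAA, found in 13.6% of all windows, and the EGR1 site GCGTGGGCG, found in 0.612%, were in neither *Pdgfa* window. These motifs do not overlap in letters apart from a GGGCG shared by the last and the GC box. Windows were listed for 4 of the members. Those of *Pdgfra* and *Pdgfc* held none of the 3 motifs, and that of *Pdgfd* held 1 TATA box. A match of letters does not show that a factor was bound.

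*Pdgfra*, the receptor that marks FAPs, lies on chromosome 5 of GRCm38 from 75152292 to 75198215 on the plus strand (ENSMUSG00000029231). It was the most abundant member, with a mean level above that of 90.9% of tested genes. Its mRNA was at 188, 177, 291 and 235 CPM in SCA1-High-FAPs replicates 1 to 4 and at 157, 163, 162 and 188 CPM in SCA1-Low-FAPs replicates 1 to 4. SCA1-Low-FAPs were therefore tightly grouped and lay at the lower edge, 3 of the 4 below every SCA1-High-FAPs sample. Means were 223 ± 52.2 and 168 ± 14.1 CPM, respectively (SD, n = 4). Their log2 difference in the fit was −0.41 (SE 0.17, 95% interval −0.76 to −0.055) and the gene was not called (edgeR, adjusted p = 0.159). Without SCA1-High-FAPs replicate 3, the highest sample, it was −0.25 (adjusted p = 0.417). The depth was 299 to 714 counts per sample, and the coefficient of variation among SCA1-High-FAPs of 23.5% stood above the 4.34% that counting alone would give.

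*Pdgfrb*, on chromosome 18 from 61045150 to 61085061 on the plus strand (ENSMUSG00000024620), encodes the receptor for PDGF-B and PDGF-D. Its mRNA was at 130, 127, 62.2 and 137 CPM in SCA1-High-FAPs and at 170, 176, 164 and 80.8 CPM in SCA1-Low-FAPs. One sample in each cell state stood well below its group, SCA1-High-FAPs replicate 3 and SCA1-Low-FAPs replicate 4. The groups overlapped only through the latter. The means of 114 ± 34.8 CPM and 148 ± 44.9 CPM (SD, n = 4) gave a log2 fold change of 0.37 (SE 0.27, 95% interval −0.22 to 0.96), which was not called (edgeR, adjusted p = 0.495). Without SCA1-Low-FAPs replicate 4 the value was 0.57 with an adjusted p of 0.182, and without SCA1-High-FAPs replicate 3 it was 0.16 (adjusted p = 0.763).

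*Pdgfrl* encodes a secreted protein that resembles the extracellular part of a PDGF receptor but has no kinase domain. The gene lies on chromosome 8 from 40926212 to 40990785 on the plus strand (ENSMUSG00000031595). Its level was 25.4, 13.6, 9.19 and 32.6 CPM in SCA1-High-FAPs and 13.5, 19.1, 26.3 and 8.18 CPM in SCA1-Low-FAPs. Both states covered nearly the same range, from 22 to 89 counts in one and 28 to 83 counts in the other. The log2 fold change of −0.28 (SE 0.42, 95% interval −1.16 to 0.61) did not pass (edgeR, adjusted p = 0.778). It turned to 0.064 without SCA1-High-FAPs replicate 4 and ranged down to −0.61 without SCA1-Low-FAPs replicate 3.

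**Figure D1:**
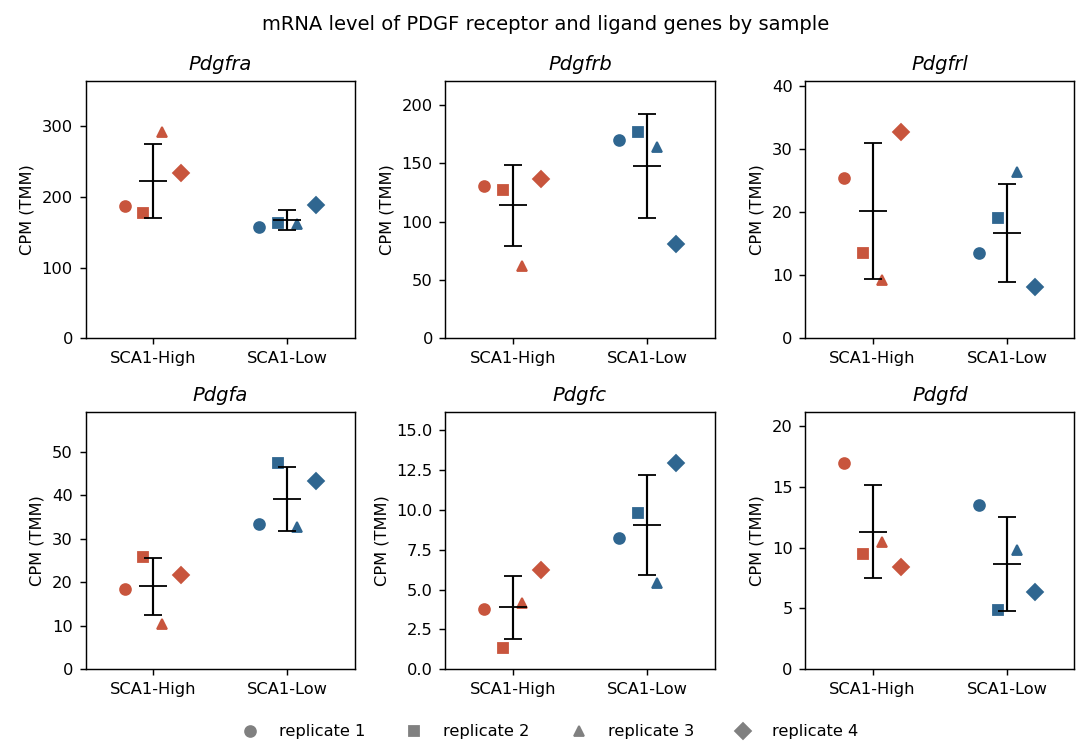
Level of each detected member in CPM after TMM scaling (vertical axis, linear, from 0) for 4 SCA1-High-FAPs and 4 SCA1-Low-FAPs samples, with a marker shape for each replicate number and the mean ± SD in black. *Pdgfa* is the only panel in which the groups do not overlap, and *Pdgfrb* shows 1 low sample in each state, at 62.2 and 80.8 CPM.

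*Pdgfa* encodes the A chain, a ligand of PDGFR-alpha, and lies on chromosome 5 from 138976014 to 138997370 on the minus strand (ENSMUSG00000025856). Its mRNA was at 18.4, 25.8, 10.4 and 21.6 CPM in SCA1-High-FAPs and at 33.4, 47.4, 32.7 and 43.3 CPM in SCA1-Low-FAPs. Every SCA1-Low-FAPs sample was above every SCA1-High-FAPs sample. The mean rose from 19.1 ± 6.49 to 39.2 ± 7.31 CPM (SD, n = 4), a 2.05-fold difference (log2 fold change 1.04, SE 0.29, 95% interval 0.43 to 1.64, edgeR adjusted p = 0.0348). *Pdgfa* was thus 1 of 6 tested members called, against 7.68% of all tested genes, or 3.32% in this direction, and no member was called higher in SCA1-High-FAPs, against 4.36%. It was also the only tested member without overlap, where 6.67% of tested genes had SCA1-Low-FAPs on top and 7.46% had SCA1-High-FAPs on top. DESeq2 likewise called 1 member, against 8.53% of its genes, and edgeR with a replicate block also called 1, against 6.85%. An unadjusted p under 0.05 was found for 3 members (*Pdgfra*, *Pdgfa* and *Pdgfc*), against 21.3% of tested genes. Among the 338 genes called higher in SCA1-Low-FAPs, it ranked 152 by log2 fold change. In bulk samples a change in the number of cells of a type and a change in RNA per cell cannot be told apart.

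The call of *Pdgfa* was close to the threshold. It was lost in 5 of 8 fits that left out 1 sample, with adjusted p of 0.0767 without SCA1-High-FAPs replicate 1, 0.0801 without SCA1-High-FAPs replicate 3, 0.0604 without SCA1-Low-FAPs replicate 1, 0.0897 without SCA1-Low-FAPs replicate 2 and 0.109 without SCA1-Low-FAPs replicate 4. The log2 fold change stayed between 0.83 and 1.22 in all 8 fits. An antisense gene, *6330403L08Rik*, overlaps the start of *Pdgfa* on chromosome 5 from 138995056 to 139000577, and held 24 counts summed over SCA1-High-FAPs and 67 over SCA1-Low-FAPs. The strand setting of the counting is not stated, and the part of this overlap in the counts of *Pdgfa* was not tested.

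**Figure D2:**
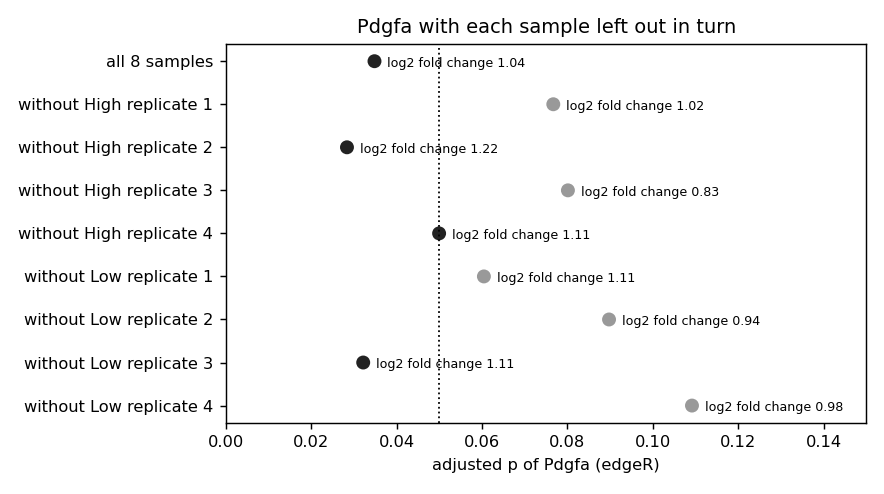
Adjusted p of *Pdgfa* by edgeR (horizontal axis) with all 8 samples and with each sample left out in turn, the log2 fold change being printed beside each point and the dotted line marking 0.05. The fold change stays between 0.83 and 1.22, while the adjusted p rises above the line in 5 of the 8 reduced fits.

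*Pdgfc* encodes the other main ligand of PDGFR-alpha, a chain released in latent form. It lies on chromosome 3 from 81036416 to 81214040 on the plus strand (ENSMUSG00000028019). Its mRNA was at 3.77, 1.36, 4.18 and 6.23 CPM in SCA1-High-FAPs and at 8.22, 9.80, 5.39 and 12.9 CPM in SCA1-Low-FAPs. The groups overlapped through SCA1-Low-FAPs replicate 3, the other 3 being above every SCA1-High-FAPs sample. These levels rest on 3 to 17 counts in the former state and 17 to 49 in the latter. The log2 fold change was 1.2 (SE 0.55, 95% interval 0.044 to 2.36) and was not called (edgeR, adjusted p = 0.215). At this depth the interval includes differences larger than that of *Pdgfa*.

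*Pdgfd*, which encodes a ligand of PDGFR-beta, lies on chromosome 9 from 6168584 to 6378850 on the plus strand (ENSMUSG00000032006). Its level was 16.9, 9.49, 10.4 and 8.43 CPM in SCA1-High-FAPs and 13.5, 4.90, 9.83 and 6.34 CPM in SCA1-Low-FAPs. The groups overlapped, and replicate 1 was the highest sample of each. The log2 fold change of −0.38 (SE 0.44, 95% interval −1.32 to 0.55) was not called (edgeR, adjusted p = 0.686). It was −0.12 without SCA1-High-FAPs replicate 1 and −0.66 without SCA1-Low-FAPs replicate 1. *Pdgfb*, on chromosome 15 from 79995874 to 80014977 on the minus strand (ENSMUSG00000000489), had 0 counts in all 8 samples, which allows up to 0.792 to 1.63 CPM per library. The B chain, a ligand of both receptors, is made largely by endothelial cells and platelets in the body.

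**Figure D3:**
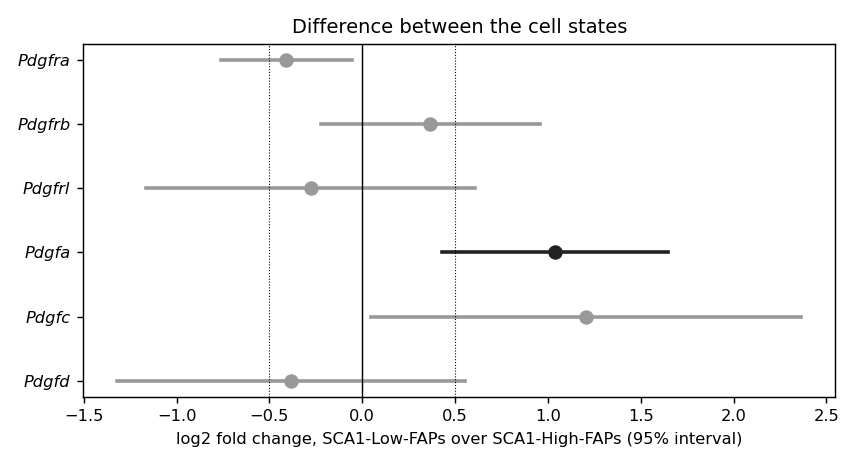
Log2 fold change of the 6 tested members, SCA1-Low-FAPs over SCA1-High-FAPs (horizontal axis), with 95% intervals from edgeR. Only *Pdgfa*, drawn in black, was called, and the interval of *Pdgfc*, from 0.044 to 2.36, is the widest of the 6, while the dotted lines mark −0.5 and 0.5.

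In order of mean level over the 8 samples, *Pdgfra* was followed by *Pdgfrb*, *Pdgfa*, *Pdgfrl*, *Pdgfd* and *Pdgfc*. In SCA1-High-FAPs the ranges of *Pdgfa* and *Pdgfrl* overlapped, and so did those of *Pdgfrl* and *Pdgfd*. The summed level of *Pdgfra* and *Pdgfrb* was similar in both states, at 304 to 371 CPM in SCA1-High-FAPs and 269 to 339 CPM in SCA1-Low-FAPs. The summed ligand level was 25.1 to 39.1 CPM in SCA1-High-FAPs and 47.9 to 62.6 CPM in SCA1-Low-FAPs, with no overlap. As counts, ligands stood at 7.08 to 12.3 per 100 receptor counts in the first state and 14.7 to 23.2 in the second. These sums include *Pdgfa* and are given without a test.

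*Pdgfra* made up 58.2% to 82.4% of the receptor counts in SCA1-High-FAPs and 48.0% to 70% in SCA1-Low-FAPs. Its share was 59.0% (95% Wilson interval 55.3% to 62.7%), 58.2% (54.4% to 61.9%), 82.4% (79.7% to 84.8%) and 63.2% (60.2% to 66.1%) in SCA1-High-FAPs replicates 1 to 4. It was 48.1% (44.3% to 51.8%), 48.0% (44.1% to 51.9%), 49.8% (46.7% to 52.8%) and 70% (67.1% to 72.7%) in SCA1-Low-FAPs replicates 1 to 4. In 3 of the 4 SCA1-Low-FAPs samples the interval included equal shares of both receptors, which it did in no SCA1-High-FAPs sample. The remaining one, replicate 4, was above 3 of the SCA1-High-FAPs samples. The log2 ratio of *Pdgfra* to *Pdgfrb* was 1.00 ± 0.83 in SCA1-High-FAPs, while SCA1-Low-FAPs had 0.25 ± 0.65 (SD, n = 4). The difference of −0.76 did not pass (two-sided exact permutation test over 70 assignments, p = 0.2, adjusted over 3 ratios 0.3). The smallest p the design allows is 0.0286. Like the edgeR test, the permutation test treats the 8 samples as independent, although 4 mice are given for them. Differences between mice were taken out in neither. The difference was −0.35 without SCA1-High-FAPs replicate 3, −0.26 without replicate 3 of both cell states and −1.08 without SCA1-Low-FAPs replicate 4. The log2 ratio of *Pdgfrl* to *Pdgfrb* differed by −0.60 (exact permutation test, p = 0.171, adjusted 0.3).

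Among ligand counts, *Pdgfa* and *Pdgfc* together held 56.6% to 76.8% in SCA1-High-FAPs and 75.4% to 92.1% in SCA1-Low-FAPs, and *Pdgfd* held the rest. The states met only at SCA1-High-FAPs replicate 4 and SCA1-Low-FAPs replicate 1. The log2 ratio of *Pdgfa* to *Pdgfc* was 2.33 ± 1.2 in SCA1-High-FAPs, while SCA1-Low-FAPs had 2.13 ± 0.36 (SD, n = 4), a difference of −0.19 (exact permutation test, p = 0.857). It became 0.378 without SCA1-High-FAPs replicate 2, the sample with 3 counts of *Pdgfc*.

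**Figure D4:**
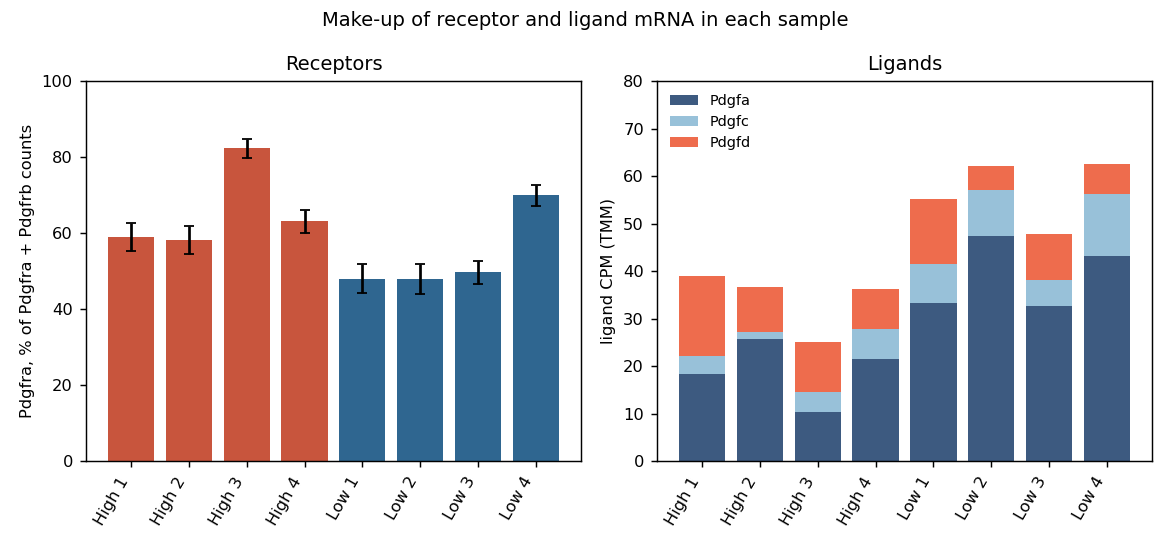
Left, share of *Pdgfra* in the counts of both receptors (percent) in each of the 8 samples with 95% Wilson intervals, and right, stacked ligand level in CPM after TMM scaling. The share of *Pdgfra* is highest in SCA1-High-FAPs replicate 3 (82.4%) and SCA1-Low-FAPs replicate 4 (70%), and every SCA1-Low-FAPs stack is taller than every SCA1-High-FAPs stack.

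The genes around the receptors were taken as 4 lists by role, 85 genes of which 80 were tested. Of these 8 were called, 10% against 7.68% of all tested genes, of which 5 rose and 3 fell in SCA1-Low-FAPs. The lists were chosen with earlier results of these data known, so the shares are a description only. Their median log2 fold change was −0.12, and that of all tested genes was 0.0003.

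Among 9 tested genes that process or bind the ligands, 1 rose and 2 fell in SCA1-Low-FAPs. Of all tested genes 3.32% rose and 4.36% fell. *Cspg4*, the NG2 proteoglycan, which binds PDGF-A and is a usual pericyte marker, rose from 3.91 ± 2.66 to 20.8 ± 13.2 CPM (SD, n = 4, log2 fold change 2.40, edgeR adjusted p = 0.0415). Its groups overlapped through SCA1-Low-FAPs replicate 3, at 2.54 CPM against 1.36 to 7.06 CPM in SCA1-High-FAPs. SCA1-High-FAPs held only 3 to 15 counts per sample. *Nrp1*, a co-receptor of growth factors, fell from 384 ± 67.7 to 218 ± 44.3 CPM (−0.82, adjusted p = 0.0076). *Pcsk5*, a proprotein convertase, fell from 69.4 ± 15.9 to 19.3 ± 16.8 CPM (−1.81, adjusted p = 0.029). The number called in this list was 1 without SCA1-High-FAPs replicate 3, and likewise without SCA1-Low-FAPs replicate 1, 2 or 4.

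All 35 genes of proximal signalling were tested, and 2 of them were called, or 5.71% against 7.68% of all tested genes. *Pik3r1*, the main regulatory subunit of PI3-kinase, which docks on phosphorylated receptors, fell from 278 ± 46.6 to 131 ± 11.1 CPM in SCA1-Low-FAPs (log2 fold change −1.09, edgeR adjusted p = 0.000672). *Hras*, a small GTPase downstream of the receptors, rose from 40.5 ± 6.0 to 72.4 ± 18.7 CPM (0.84, adjusted p = 0.027). The number fell to 1 without SCA1-High-FAPs replicate 2, 3 or 4 and without SCA1-Low-FAPs replicate 1 or 4. By DESeq2 it was 4, where 8.53% of all its genes were called.

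None of 16 tested negative regulators was called by edgeR or DESeq2, and 2 had an unadjusted p under 0.05. These were *Ptpn1*, a phosphatase that acts on receptor kinases (log2 fold change −0.54, adjusted p = 0.0689), and *Cblb*, a ubiquitin ligase of receptors (−0.59, adjusted p = 0.184). Without SCA1-Low-FAPs replicate 3 there were 2 calls in this list.

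Of 20 genes of the growth factor response 3 were called, all higher in SCA1-Low-FAPs, against 3.32% of all tested genes in that direction. *Ier3*, an immediate early gene, rose from 125 ± 16.6 to 283 ± 79.1 CPM (log2 fold change 1.18, edgeR adjusted p = 0.00129). *Fosl1*, which encodes the AP-1 subunit FRA-1, rose from 22.7 ± 12.4 to 51.4 ± 7.18 CPM (1.16, adjusted p = 0.0278). The list's median was 0.43, with 11 positive and 9 negative values. The negative ones were *Fos*, *Fosb*, *Jun*, *Junb*, *Egr1*, *Egr2*, *Ier2*, *Myc* and *Srf*, from −1.09 (*Egr2*) to −0.12 (*Srf*). None of these was called, so *Ier3* does not stand for the immediate early genes of the list. Without SCA1-High-FAPs replicate 4 there were 5 calls, and DESeq2, which called 8.53% of all its genes, gave 5.

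**Figure D5:**
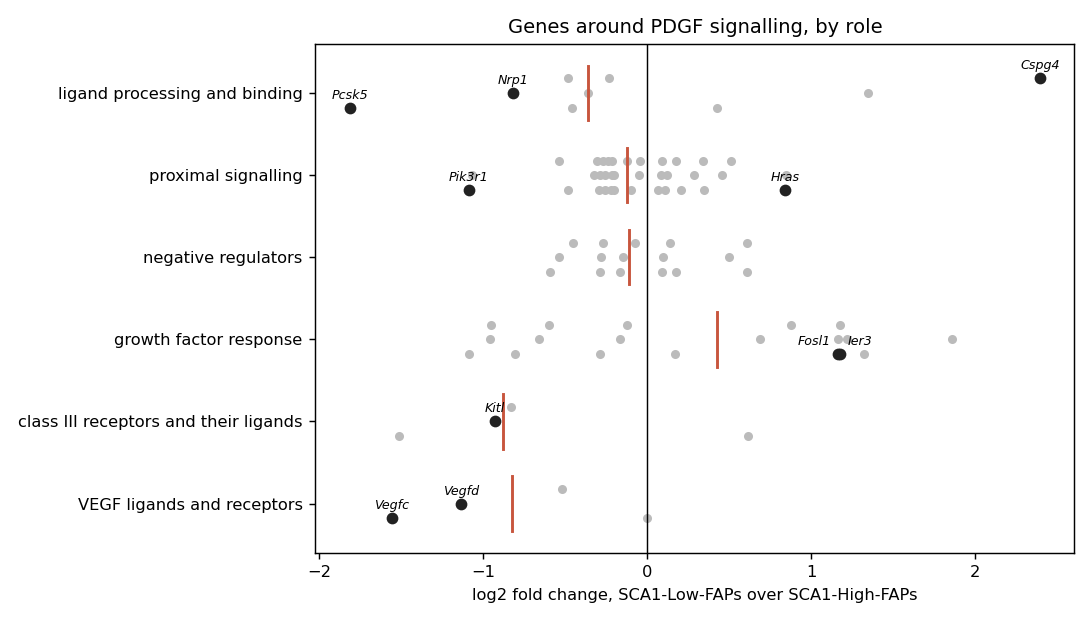
Log2 fold change, SCA1-Low-FAPs over SCA1-High-FAPs (horizontal axis), of tested genes in 6 lists, with called genes in black and named, other genes in grey and the median of each list as a red line. Called genes lie on both sides of 0 among ligand processing and proximal signalling genes, whereas those of the growth factor response are higher and the VEGF and KIT ligands lower in SCA1-Low-FAPs.

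The nearest relatives of the PDGF genes were compared as well. Class III receptors share the split kinase domain of the PDGF receptors, and 4 of 7 genes for them and their ligands were tested. *Kitl*, the ligand of KIT, fell from 239 ± 60.1 to 126 ± 30.8 CPM in SCA1-Low-FAPs (SD, n = 4, log2 fold change −0.93, edgeR adjusted p = 0.0090). *Csf1*, the ligand of CSF1R, was at 779 ± 277 and 1194 ± 212 CPM (0.62, adjusted p = 0.0889). Without SCA1-High-FAPs replicate 1 there were 2 calls in this list, and DESeq2, which called 8.53% of all its genes, gave 3. Vascular endothelial growth factors share the cystine knot fold of PDGF, and 4 of 8 genes for them and their receptors were tested. *Vegfd* fell from 390 ± 35.2 to 177 ± 53.9 CPM (−1.13, adjusted p = 0.00132), and *Vegfc* fell from 112 ± 45.7 to 38.2 ± 3.78 CPM (−1.56, adjusted p = 0.00165). Both encode lymphatic growth factors. Every fit that left out 1 sample called 2 genes of this list. *Vegfa* was at 81.1 ± 12.1 and 81.1 ± 13.3 CPM. Over all these lists 11 of 88 tested genes were called, or 12.5% against 7.68% of all tested genes. Because the lists were chosen with earlier results of these data known, no conclusion is drawn from this difference. Without SCA1-Low-FAPs replicate 1 the number was 7, and calls over all genes fell as well, from 338 to 159 higher and from 444 to 258 lower in SCA1-Low-FAPs.

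Genes of other cell types and of cell division moved with the cell states, and their part in the values above was not tested. Counts of called markers stand beside 7.68% called among all tested genes, 3.32% as higher and 4.36% as lower in SCA1-Low-FAPs. The summed level of 11 pericyte and smooth muscle markers was 741 to 1955 CPM in SCA1-High-FAPs and 2420 to 3634 CPM in SCA1-Low-FAPs. This sum consisted mostly of the contractile genes *Acta2* (means of 946 and 2497 CPM) and *Tagln* (255 and 556 CPM). Of the 11 markers 5 passed the filter on low counts and all 5 were called, *Cnn1*, *Acta2*, *Tagln* and *Myh11* as higher and *Notch3* as lower in SCA1-Low-FAPs. Pericyte markers below the filter had few counts, *Vtn* with 46 counts summed over SCA1-High-FAPs and 1 over SCA1-Low-FAPs, *Abcc9* with 54 and 11, *Mcam* with 50 and 27 and *Kcnj8* with 4 and 6. The pericyte marker *Higd1b* was at 0, and *Rgs5* held 32 counts summed over SCA1-High-FAPs and 22 over SCA1-Low-FAPs. *Cspg4*, a pericyte marker outside this list, went the other way. It held 37 counts summed over SCA1-High-FAPs and 226 over SCA1-Low-FAPs and was called, as given above. Of 10 cycling genes 9 were called and all 9 were higher in SCA1-Low-FAPs, with summed levels of 619 to 854 CPM and 1208 to 1789 CPM. *Aurka*, *Birc5*, *Plk1* and the most abundant, *Top2a* and *Mki67*, were among them. Adipocyte markers ran the other way, from 1213 to 6905 CPM in SCA1-High-FAPs against 123 to 672 CPM in SCA1-Low-FAPs, and 4 of 7 tested (*Retn*, *Lipe*, *Car3* and *Adipoq*) fell, while the most abundant, *Fabp4*, was not called. Summed endothelial markers were at 6.97 to 16.3 and 5.32 to 11.9 CPM, with *Tie1*, *Cldn5* and *Emcn* at 0. The most abundant endothelial markers were *Egfl7* at means of 7.61 and 4.57 CPM and *Tek* at 4.10 and 1.07 CPM, of which only *Egfl7* was tested and it was not called. Summed leucocyte markers were at 23.1 to 43.0 and 7.25 to 16.2 CPM, of which *Lyz2* fell, *Cd68* held 27 and 6 counts, and 4 of 10, *Adgre1* among them, were at 0. Summed myogenic markers were at 2.57 to 9.42 and 6.98 to 25.6 CPM, with *Pax7*, *Myf5*, *Myod1* and *Myog* at 0. *Acta1* was at 2.04 and 8.50 CPM without overlap (edgeR, adjusted p = 0.0547) and *Itga7* at 2.03 and 3.03 CPM. Summed Schwann cell markers were at 16.5 to 58.5 and 7.62 to 11.6 CPM and tenocyte markers at 161 to 344 and 299 to 398 CPM, with no gene of either list called. The most abundant were *S100b* (12.6 and 6.88 CPM) and *Ngfr* (14.8 and 0.651 CPM) in the first and *Fmod* (229 and 331 CPM) and *Tnmd* (24.0 and 8.20 CPM) in the second.

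For each tested member, the 3 genes with the most similar profile over the 8 samples were found by the root mean square (RMS) difference in centred log2 CPM. Those of *Pdgfa* were *Mtbp* (RMS 0.139), *Tubb6* (0.142) and *Col12a1* (0.162). Those of *Pdgfra* were *Pet100* (0.0925), *Hmox2* (0.103) and *Sdccag8* (0.107). Those of *Pdgfrb* were *Kdm4c* (0.14), *Tfg* (0.146) and *Prr3* (0.161), and those of *Pdgfrl* were *Tsnax* (0.196), *9530068E07Rik* (0.201) and *Id3* (0.202). *Pdgfd* was nearest to *Elf2* (0.150), *Tm7sf2* (0.163) and *A630072M18Rik* (0.185). *Pdgfc* had no profile as close, its nearest being *Kif14* at 0.314, *Cfap43* at 0.316 and *Spdl1* at 0.338. No member was among the 3 nearest of another. All profiles come from the same 8 libraries, and the likeness is a description only.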

How the data were processed

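RNA of 4 SCA1-High-FAPs and 4 SCA1-Low-FAPs samples was made into QuantSeq 3′ mRNA libraries. The authors trimmed the reads, aligned them with STAR to mm10 and counted them per gene of Ensembl 93 with htseq-count. The deposited values are raw counts, not normalised, and reads with several positions were given to no gene. Reads without a feature were 7.87% to 10.2% of reads listed, those without a unique position 37.5% to 43.3%, and both were left out. The strand setting is not given in the sources used here. Samples were grouped as labelled. The series description gives 4 *mdx* mice for the 8 samples, and the labels do not tie a replicate number to a mouse.

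Names and positions came from GENCODE M21 (30934 of 31053 genes). Counts were tested with edgeR 4.0.16 under R 4.3.3 (robust quasi-likelihood, TMM, filterByExpr with minima of 10 and 15 counts, Benjamini-Hochberg over 10181 genes). Ratios used a pseudocount of 0.5 and exact permutation tests over all assignments, and Wilson intervals of shares were computed with scipy 1.17.1. Profiles used log2 CPM with a prior count of 2. The fit was tested on simulated data. The alternatives were DESeq2 1.42.0, other scaling and filters, a replicate block, an adjusted p of 0.01, a pseudocount of 1 and each sample left out, and replicate 3 of both states left out was added after seeing the data. The members and lists were chosen with earlier results of these data known. Named were all members, from each pathway list the called genes up to 6 by smallest p or else the 2 with the smallest p, from marker lists *Ly6a*, up to 4 called genes by smallest p and the 2 most abundant, and the 3 nearest profiles. *Gsn*, *Notch3*, markers with few or no counts and the negative values of the growth factor response list were named after their values were seen. For 1 called gene of the growth factor response list no values are reported here, and it is not drawn.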

Additional observations from a re-analysis of the deposited data

Results flagged for a closer look

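Within each group of 4 samples, the distance of the most extreme sample from its nearest neighbour was set against the range, in 18 groups of values, where chance marks about 1 group in 20. *Pdgfrb* in SCA1-High-FAPs replicate 3 stood far from the others, at 62.2 CPM against 127 to 137 CPM. *Pdgfrb* in SCA1-Low-FAPs replicate 4 did so too, at 80.8 CPM against 164 to 176 CPM. The log2 ratio of *Pdgfra* to *Pdgfrb* in SCA1-Low-FAPs replicate 4 was 1.22 against −0.12 to −0.01, and shares the *Pdgfrb* count with the value before. *Pdgfra* in the same samples was at 291 and 188 CPM, the highest of each cell state. With the means of the states removed, SCA1-High-FAPs replicate 3 and SCA1-Low-FAPs replicate 4 correlated across genes at 0.255. This was the highest value of any pair between the states, and whether these samples share a mouse is not stated.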

How the results depend on the processing

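With 1 sample left out in turn, genes called higher in SCA1-Low-FAPs numbered 159 to 434 and those called higher in SCA1-High-FAPs 246 to 583, lowest without SCA1-Low-FAPs replicates 1 and 4 in that order. The members called numbered 0 to 1, the pathway and relative genes called 7 to 14, and the log2 fold change of *Pdgfa* was 0.83 to 1.22. *Pdgfrl* ranged from −0.61 to 0.064, and the log2 ratio of *Pdgfa* to *Pdgfc* from −0.54 to 0.378, so both turned in direction in 1 fit. No member was called at an adjusted p under 0.01 or, with replicate 3 of both states left out, at 0.05, where *Pdgfa* had a log2 fold change of 0.91 and an adjusted p of 0.0565. DESeq2 called 18 pathway and relative genes, where it called 8.53% of all its genes. DESeq2 with the replicate block called 17, where it called 7.08% of its genes. The main fit called 11, where it called 7.68%. The cause of these changes was not tested. *Pdgfa* kept its call under DESeq2 (adjusted p = 0.0169), and the filter of 10 counts in every sample left no test for *Pdgfc* and *Pdgfd*. Depth left *Pdgfb* without a test and *Pdgfc* with as few as 3 counts in a sample.

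Replicate numbers occur in both states, and with the means of the states removed, same-numbered samples correlated across genes at −0.0502 to 0.00673 and 0 of 8 samples correlated best with its own number, so no pairing was assumed. With the number as a replicate block, edgeR called 697 genes in place of 782, *Pdgfa* remained called (adjusted p = 0.0328), *Ly6a* did not (adjusted p = 0.0573), and 6 growth factor response genes were called in place of 3.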
